A study of Glycine max with 12 samples.

Results

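Cinnamate 4-hydroxylase (C4H) and 4-coumarate:CoA ligase (4CL) genes were followed in soybean (Glycine max) roots grown with or without arbuscular mycorrhizal fungi. The set was given as 8 gene IDs, 4 counted here as C4H and 4 as 4CL, out of 49551 genes with a value in at least 1 of 12 libraries. The deposited tables listed 7 of the 8, and 6 were given a test. The set was chosen by name and in part by the deposited values of 1 gene: Glyma.20G114200 was selected on its opposite moves in Ri and Ga-L against NM. Its levels and fold changes are therefore given as a description, with no test, and nothing is read from their direction.

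Total RNA from roots was profiled in 4 groups of 3 libraries, named in the labels by the fungal inoculum. Ri roots carried Rhizophagus irregularis, Ga-H roots carried Glomus aggregatum at high colonization, Ga-L roots carried Glomus aggregatum at low colonization, and NM roots had no mycorrhizal fungus. The cultivar, the age of the plants and the strains of the fungi are not given in the labels. Nothing in the labels ties the 3 libraries of a group to different plants or pots. The p-values therefore measure the spread between these samples alone, and part of it may be technical.

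The phenylpropanoid pathway starts when phenylalanine ammonia-lyase (PAL) turns phenylalanine into cinnamate. C4H, a cytochrome P450 of the CYP73 family bound to the endoplasmic reticulum, hydroxylates cinnamate to p-coumarate, and 4CL joins p-coumarate and related acids to coenzyme A. The activated p-coumarate then goes to lignin or, through chalcone synthase (CHS), to flavonoids, and in legume roots chalcone reductase (CHR), chalcone isomerase (CHI) and isoflavone synthase (IFS) lead on to isoflavonoids, which serve as signals to microbes and as precursors of antimicrobial phytoalexins.

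The deposited tables give gene IDs and no names. The RefSeq gene table used here, of assembly Glycine_max_v4.0, paired 0 of the 8 IDs with a symbol. It holds genes with C4H symbols on chromosomes 2 and 20 and genes with 4CL symbols on chromosomes 1, 11, 13 and 17, without tying them to these IDs. The division of the IDs into C4H (Glyma.20G114200.Wm82.a2.v1, Glyma.10G275600.Wm82.a2.v1, Glyma.14G205200.Wm82.a2.v1 and Glyma.02G236500.Wm82.a2.v1) and 4CL (Glyma.17G064600.Wm82.a2.v1, Glyma.13G372000.Wm82.a2.v1, Glyma.11G010500.Wm82.a2.v1 and Glyma.01G232400.Wm82.a2.v1), and the lists of other pathway genes used below, rest on general knowledge of soybean gene names and could not be checked against an annotation of these IDs. The annotation tag at the end of each ID is left off below.

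Total expected counts ran from 10182200 to 11054762 per library. Ri replicate 1 stood apart from its group: its correlation across genes averaged 0.948 with the Ga-H libraries, against 0.908 with Ri replicates 2 and 3. Leghemoglobin genes, which mark nodules, were nearly absent: of 4 in the list 1 appeared in the tables, the summed level reached at most 0.14 FPKM in Ri and Ga-L, and 4 of 4 were at 0 in Ga-H and in NM (3 of 4 in Ri and in Ga-L). Small-subunit Rubisco genes, which mark green shoot tissue, were listed for 3 of 3, with none at 0 over a whole group. Their summed level ran from 7.66 to 19.6 FPKM in Ri, 4.42 to 9.94 FPKM in Ga-H, 3.82 to 7.14 FPKM in Ga-L and 2.21 to 2.89 FPKM in NM. The Rubisco sum was thus higher in each library with a fungus than in any NM library, and 1 of the 2 genes tested, Glyma.19G046800, passed in Ri against NM (log2 fold change 2.27, adjusted p = 0.0194 in edgeR, lost without Ri replicate 3 or any 1 NM library). The part of shoot RNA in the results below was not tested.

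The members differed widely in level, which is given here as FPKM (fragments scaled to transcript length and to the mapped fragments of the library) so that genes of different length can be compared. Glyma.02G236500 had the highest level in 12 of 12 libraries, from 386 to 456 FPKM in Ri, 326 to 417 FPKM in Ga-H, 348 to 444 FPKM in Ga-L and 411 to 487 FPKM in NM. Next came Glyma.14G205200, which lay above Glyma.13G372000, the most abundant of the listed 4CL genes, in 12 of 12 libraries. Glyma.13G372000 lay above Glyma.01G232400 in 11 of 12 libraries, and Glyma.01G232400 lay above Glyma.17G064600 in 12 of 12. The neighbours Glyma.17G064600 and Glyma.11G010500 were not separated by their spread, since the order held in 8 of 12 libraries. Glyma.20G114200 was the lowest listed member in 12 of 12. Glyma.10G275600 was listed in none of the 12 tables, which hold only values above 0, so a gene with no reads and a gene outside the tables' gene set look the same and no level is given for it.

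**Figure D1:**
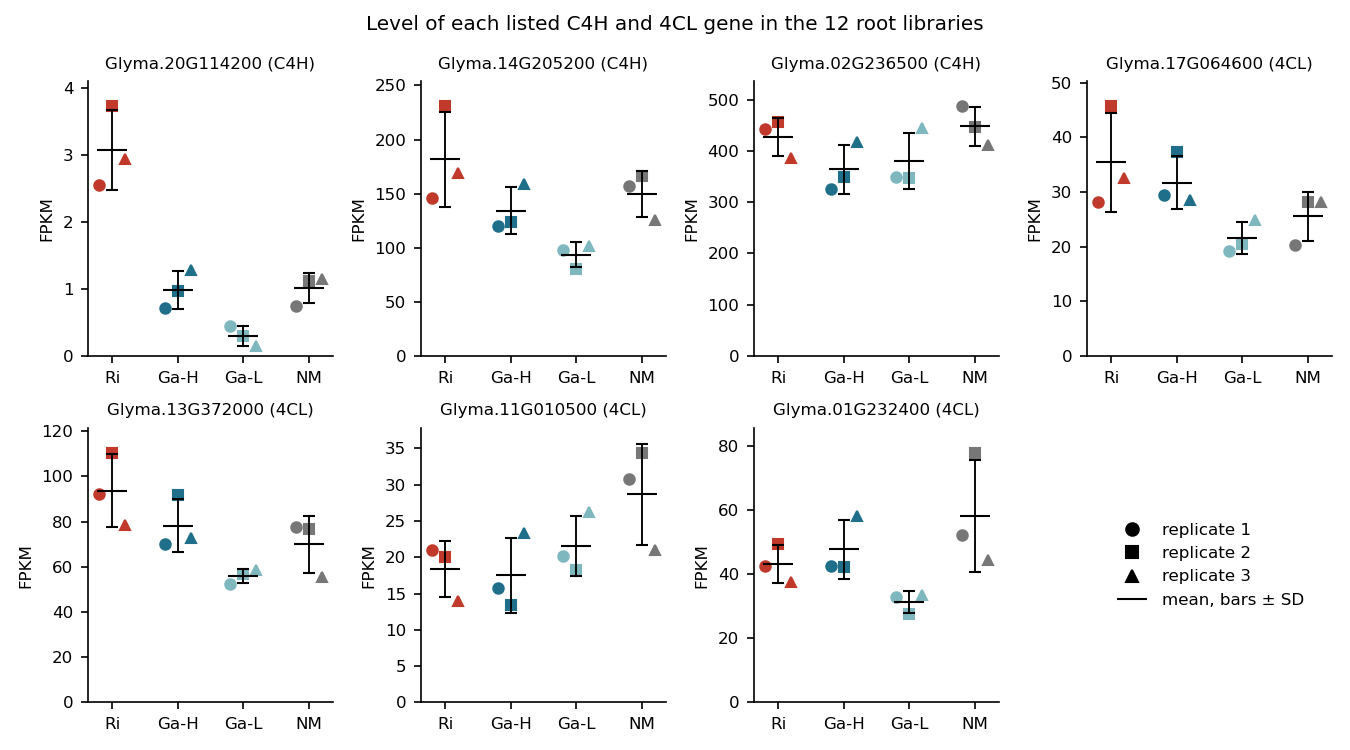
FPKM of the 7 listed members in each library, 1 panel per gene with its own axis, with groups Ri, Ga-H, Ga-L and NM from left to right, points for libraries and lines with bars for group means and SD. Glyma.20G114200 lies at 2.55 to 3.72 FPKM in Ri and at 0.15 to 0.45 FPKM in Ga-L, while Glyma.02G236500 stays between 326 and 487 FPKM in all groups.

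The expected counts show which members share reads with another gene. An expected count that is not whole arises when reads matching several genes are divided among them, and 23.6% of all genes had whole counts in every library (within 0.011). Glyma.20G114200 was one of these in 12 of 12 libraries, so its counts show no such division. Shared reads given wholly to a single gene would also leave whole counts, and this was not tested. The counts of Glyma.14G205200 and Glyma.02G236500 were whole in 0 of 12 libraries each, yet their sum was whole (within 0.021) in 12 of 12, and no other gene gave this for either. The same arithmetic joined Glyma.11G010500 to Glyma.01G232400. It also joined Glyma.17G064600 to Glyma.13G095600 and Glyma.13G372000 to Glyma.15G001700, which are not members. In each case exactly 1 gene gave whole sums in 12 libraries, and the next best gene gave them in 5. The separate values of the 6 tested members thus rest on how reads common to both copies were divided, and they are uncertain to that extent.

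Among the C4H genes, Glyma.20G114200 had 2.55, 3.72 and 2.94 FPKM in Ri, 0.71, 0.97 and 1.28 FPKM in Ga-H, 0.45, 0.30 and 0.15 FPKM in Ga-L and 0.75, 1.12 and 1.15 FPKM in NM. The 3 Ri libraries were above all others and the 3 Ga-L libraries below all others, while Ga-H and NM overlapped. These levels rest on few reads: 188 counts over the 3 libraries in Ri, 60 in Ga-H, 18 in Ga-L and 64 in NM, with as few as 3 in 1 Ga-L library. The mean was 3.07 ± 0.596 FPKM in Ri, 0.987 ± 0.285 FPKM in Ga-H, 0.300 ± 0.15 FPKM in Ga-L and 1.01 ± 0.223 FPKM in NM (SD, n = 3 each). The log2 fold change from the edgeR fit was 1.57 in Ri against NM, -0.06 in Ga-H against NM and -1.68 in Ga-L against NM. It was 3.26 in Ri against Ga-L, a ratio of 10.2 in mean FPKM, and 1.62 in Ga-H against Ga-L, where both groups carry the same fungus. Without Ri replicate 1 the value for Ri against Ga-L was 3.35. Ga-H, which the choice of the gene did not use, overlapped NM. Nothing is read from its place between Ri and Ga-L, since the gene was chosen for opposite moves in those groups.

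Even where it was highest, Glyma.20G114200 made up 0.499% of the summed FPKM of the 3 listed C4H genes in Ri, against 0.195% in Ga-H, 0.066% in Ga-L and 0.171% in NM. The sum itself was 613 ± 69.0 FPKM in Ri, 499 ± 68.8 FPKM in Ga-H, 474 ± 63.1 FPKM in Ga-L and 599 ± 54.7 FPKM in NM (SD, n = 3 each). In bulk RNA from roots, fewer cells of a type and less RNA per cell cannot be told apart, and this holds for every level given here.

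Glyma.14G205200, the second most abundant C4H copy, had 146, 231 and 169 FPKM in Ri, 120, 124 and 159 FPKM in Ga-H, 97.8, 80.4 and 102 FPKM in Ga-L and 157, 166 and 126 FPKM in NM. All 3 Ga-L libraries were below every library of the other groups, and the other groups overlapped one another. Its log2 fold change was 0.89 (SE 0.20) in Ri against Ga-L, which passed the quasi-likelihood test of edgeR (adjusted p = 0.0325, Benjamini-Hochberg over all genes tested). For Ga-L against NM it was -0.63 (SE 0.20), which missed the threshold (adjusted p = 0.0557 in the same edgeR test). The mean was 182 ± 43.8 FPKM in Ri, 134 ± 21.7 FPKM in Ga-H, 93.4 ± 11.5 FPKM in Ga-L and 150 ± 21.3 FPKM in NM (SD, n = 3 each).

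The call for Glyma.14G205200 in Ri against Ga-L depended on single libraries. With Ri replicate 1 left out, which resembled the Ga-H libraries, the log2 fold change was 1 and the edgeR adjusted p was 0.00676. The call was lost without the Ri libraries of replicate 2 (edgeR adjusted p = 0.0958) or 3 (0.0824), without the Ga-H library of replicate 2 (0.0504), and without each Ga-L library in turn (0.0657, 0.142 and 0.0758 for replicates 1, 2 and 3). It held in 14 of 22 alternatives that kept read-sharing copies apart, over which the adjusted p ran from 0.000881 to 0.142. With both copies counted as 1 gene it was lost (adjusted p = 0.400 in edgeR).

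Glyma.02G236500, the copy that shares reads with Glyma.14G205200, varied less between groups. It averaged 428 ± 37.1 FPKM in Ri, 364 ± 47.1 FPKM in Ga-H, 380 ± 55.1 FPKM in Ga-L and 448 ± 37.8 FPKM in NM (SD, n = 3 each). The fitted log2 fold change was 0.10 in Ri against Ga-L and -0.19 in Ga-L against NM, and it passed the test in none of the 6 comparisons.

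Glyma.14G205200 therefore took a varying share of the FPKM of the pair. It held 29.6 ± 4.45% in Ri, 26.9 ± 0.778% in Ga-H, 19.8 ± 1.83% in Ga-L and 25.0 ± 1.95% in NM (SD, n = 3 each). The Ga-L libraries lay between 18.7% and 21.9%, below the Ri libraries at 24.8% to 33.6% and the NM libraries at 23.4% to 27.2%. With both copies counted as 1 gene, an alternative chosen after seeing the data, the log2 fold change in Ri against Ga-L was 0.29 (SE 0.18) and no longer passed (adjusted p = 0.400 in edgeR). That sum is mostly Glyma.02G236500, and how the reads common to both copies were divided was not tested here.

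**Figure D2:**
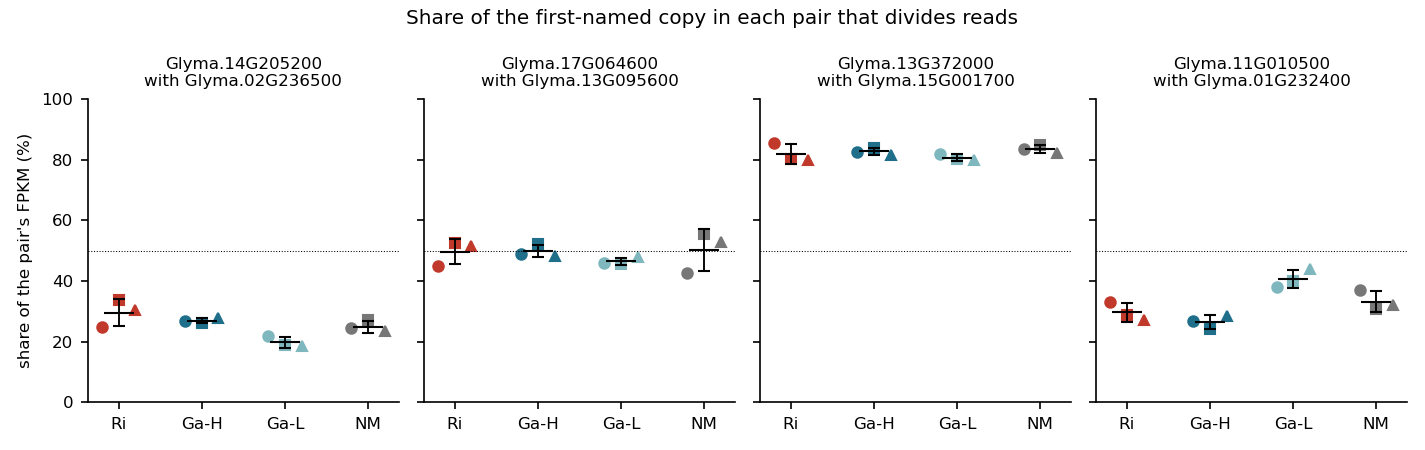
Share of the first-named copy in the summed FPKM of each of the 4 read-sharing pairs, in percent, for every library by group (Ri, Ga-H, Ga-L, NM), with lines and bars for group means and SD. The share of Glyma.14G205200 is lowest in Ga-L (mean 19.8%), where the share of Glyma.11G010500 is highest (mean 40.5%), and the group means of the other pairs stay at 80.6% to 83.6% and 46.5% to 50.3%.

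Among the 4CL genes, Glyma.13G372000 had 92.2, 110 and 78.3 FPKM in Ri, 70.1, 91.9 and 72.7 FPKM in Ga-H, 52.4, 56.9 and 58.6 FPKM in Ga-L and 77.5, 76.9 and 55.5 FPKM in NM. The Ga-L libraries were below all Ri and all Ga-H libraries and overlapped NM. The log2 fold change in Ri against Ga-L was 0.67 (SE 0.18), just short of the threshold (adjusted p = 0.0551 in edgeR). It was called in 5 of 22 alternatives that kept read-sharing copies apart. With both copies counted as 1 gene it did not pass (adjusted p = 0.0601 in edgeR).

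Glyma.17G064600 had a like order of group means at a lower level. It averaged 35.5 ± 9.08 FPKM in Ri, 31.8 ± 4.80 FPKM in Ga-H, 21.6 ± 2.96 FPKM in Ga-L and 25.5 ± 4.46 FPKM in NM (SD, n = 3 each). The log2 fold change in Ri against Ga-L was 0.65 (SE 0.20), with adjusted p = 0.0945 in edgeR. Without Ri replicate 1 it passed (adjusted p = 0.0306 in edgeR). Its partner Glyma.13G095600, named here because it shares reads, rose in Ri against NM (log2 fold change 0.48, SE 0.13, edgeR adjusted p = 0.0376), with 35.6 ± 5.45 FPKM in Ri and 25.0 ± 2.56 FPKM in NM (SD, n = 3 each). That call was lost without 7 of the 12 libraries in turn, with adjusted p up to 0.148 over all alternatives. Counted as 1 gene, the pair had a log2 fold change of 0.47 in Ri against NM, with adjusted p = 0.0697 in edgeR.

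Glyma.01G232400 was the 4CL gene that changed against NM. It had 42.6, 49.3 and 37.6 FPKM in Ri, 42.7, 42.4 and 58.3 FPKM in Ga-H, 33.0, 27.5 and 33.7 FPKM in Ga-L and 52.2, 77.9 and 44.6 FPKM in NM. The Ga-L libraries lay below every other library, while Ri and Ga-H each overlapped NM. The log2 fold change in Ga-L against NM was -0.84 (SE 0.21), with adjusted p = 0.0231 in edgeR's quasi-likelihood test. NM replicate 2 stood above the other NM libraries, and without it the log2 fold change was -0.58 and the call was lost (adjusted p = 0.0976 in edgeR). The call was also lost without Ga-L replicate 2 (adjusted p = 0.106 in edgeR) or Ga-L replicate 3 (adjusted p = 0.0542 in edgeR). It held in 19 of 22 alternatives that kept read-sharing copies apart, with edgeR, DESeq2 and limma adjusted p from 0.00394 to 0.106. With both copies counted as 1 gene it was lost (adjusted p = 0.0649 in edgeR).

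Glyma.11G010500, which shares reads with Glyma.01G232400, was not lowest in Ga-L. It had 21.0, 20.1 and 13.97 FPKM in Ri, 15.8, 13.4 and 23.3 FPKM in Ga-H, 20.1, 18.3 and 26.3 FPKM in Ga-L and 30.8, 34.4 and 20.9 FPKM in NM. Each colonized group overlapped NM, Ri by the narrow margin of NM replicate 3 and Ri replicate 1, and the other NM libraries lay above all colonized libraries. The log2 fold change was -0.74 (SE 0.26) in Ga-H against NM, which did not pass (adjusted p = 0.119 in edgeR). Without Ga-H replicate 3 it was -1.01 and passed (adjusted p = 0.0413 in edgeR).

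In this pair the share of Glyma.11G010500 was 29.7 ± 3.05% in Ri, 26.5 ± 2.30% in Ga-H, 40.5 ± 3% in Ga-L and 33.2 ± 3.41% in NM (SD, n = 3 each). The Ga-L libraries, at 37.9% to 43.8%, were above the NM libraries, at 30.6% to 37.1%, and above all Ri and Ga-H libraries. With both copies counted as 1 gene the log2 fold change in Ga-L against NM was -0.67 (SE 0.22), and the call was lost (adjusted p = 0.0649 in edgeR). The shares of the other pairs moved less: Glyma.13G372000 held 80.6% to 83.6% of its pair over the group means, and Glyma.17G064600 held 46.5% to 50.3%. The summed FPKM of the 4 listed 4CL members was 191 ± 32.0 in Ri, 175 ± 15.0 in Ga-H, 131 ± 11.3 in Ga-L and 183 ± 34.1 in NM (SD, n = 3 each). The Ga-L sums, from 123 to 144 FPKM, lay below the NM sums, from 149 to 217 FPKM, and no test was made on them.

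The comparisons of groups ask how roots respond to each inoculum and whether the inocula differ. Against NM, 0 of the 6 tested members passed in Ri with edgeR, while 13.1% of the 36323 genes tested passed, 9.08% higher and 4.04% lower. The count was also 0 with DESeq2 and with limma, and 3 members had an unadjusted edgeR p under 0.05. These were Glyma.13G372000 and Glyma.17G064600, both higher, and Glyma.11G010500, lower by a log2 fold change of -0.66 (adjusted p = 0.112 in edgeR). The signs of the 6 tested members were split. Glyma.13G372000, Glyma.17G064600 and Glyma.14G205200 had positive and the other 3 negative log2 fold changes. The median of the 6 was 0.09 beside 0.03 over all genes. The share of all genes under the unadjusted cut is not given, here or below, so counts at that cut have no background beside them.

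In Ga-H against NM, 0 of 6 members passed with edgeR, DESeq2 or limma, where 8.12% of all genes passed, 6.25% higher and 1.87% lower, and 1 member had an unadjusted edgeR p under 0.05. The median log2 fold change of the members was -0.25 beside 0.00 over all genes. In Ga-L against NM, 1 of 6 passed, Glyma.01G232400, which was lower, while 4.86% of all genes were lower, 8.78% were higher and 13.6% passed in either direction. DESeq2 and limma each called 2 members lower, the other being Glyma.14G205200 (adjusted p = 0.0171 with DESeq2 and 0.0392 with limma). The shares of all genes, here and below, are from edgeR alone, so the DESeq2 and limma counts have no share beside them. All 6 members had a negative log2 fold change in this comparison, from -0.84 to -0.19, with a median of -0.32 beside 0.01 over all genes. Some of these members share reads with each other, so their signs are not separate. The read partners outside the set, Glyma.13G095600 and Glyma.15G001700, were at 0.03 and 0.04. The share of all genes below 0 is not given. These comparisons share the NM libraries.

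Between inocula, 0 of 6 members passed in Ri against Ga-H with edgeR, DESeq2 or limma, and 1 had an unadjusted edgeR p under 0.05, where 0.0165% of all genes passed, 0.00826% higher and 0.00826% lower. In Ri against Ga-L, 1 of 6 passed, Glyma.14G205200, which was higher, while 1.56% of all genes were higher, 2.7% were lower and 4.26% passed in either direction. DESeq2 and limma each called 2 members higher, the other being Glyma.13G372000 (adjusted p = 0.00819 with DESeq2 and 0.0376 with limma). The shares of all genes with these tools are not given. The member median was 0.52 beside 0.03 over all genes, and 5 of 6 members were positive, with Glyma.11G010500 at -0.30. In Ga-H against Ga-L, the contrast of high with low colonization by the same fungus, 0 of 6 passed with edgeR, DESeq2 or limma, where 0.84% of all genes passed, 0.374% higher and 0.465% lower. There 4 members had an unadjusted edgeR p under 0.05, and the median was 0.43 beside 0.01. The 0.84% is at the adjusted cut and is no background for these 4.

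**Figure D3:**
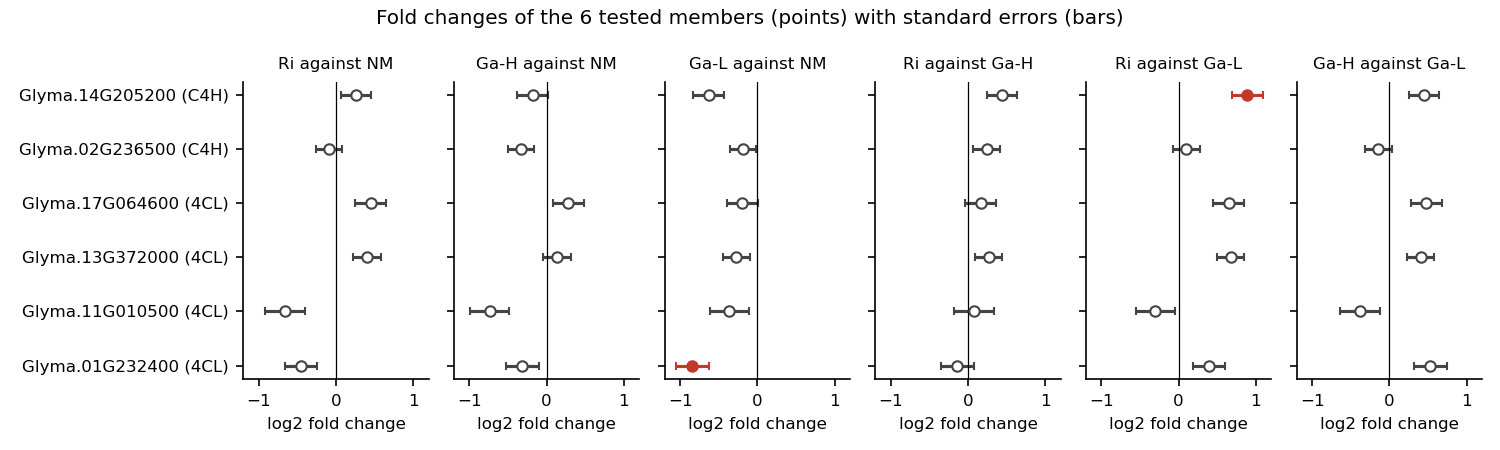
Log2 fold change with its standard error for the 6 tested members in the 6 comparisons, first-named group over second, from the edgeR fit to 12 libraries; filled red points passed an adjusted p of 0.05. Of 36 values 2 passed, Glyma.01G232400 in Ga-L against NM (-0.84) and Glyma.14G205200 in Ri against Ga-L (0.89).

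The genes that come before and after these steps were described as 5 lists holding 29 genes, of which 28 were tested. In Ri against NM 3 of 28 (10.7%) were higher and 2 (7.14%) lower, beside 9.08% and 4.04% of all genes. In Ga-H against NM 0 were higher and 2 (7.14%) lower, beside 6.25% and 1.87% of all genes. In Ga-L against NM 3 (10.7%) were higher and 5 (17.9%) lower, beside 8.78% and 4.86% of all genes. The median log2 fold change of the 28 was 0.06 for Ri, -0.06 for Ga-H and -0.42 for Ga-L, each against NM, beside 0.03, 0.00 and 0.01 over all genes. In Ri against Ga-L 2 (7.14%) were higher and 1 (3.57%) lower, beside 1.56% and 2.7% of all genes, with a median of 0.46 beside 0.03. In both other comparisons edgeR called 0 of 28, where it called 0.0165% and 0.84% of all genes. For Ri against Ga-H, 1 had an unadjusted p under 0.05 and DESeq2 and limma called 0. For Ga-H against Ga-L, 6 had an unadjusted p under 0.05 and DESeq2 and limma called 1 each.

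PAL supplies cinnamate to C4H. Of 8 PAL genes tested, 1 passed, Glyma.02G309300, higher in Ri against NM by a log2 fold change of 0.70 (adjusted p = 0.0382 in edgeR), with 21.2 ± 2.49 FPKM in Ri and 12.9 ± 3.21 FPKM in NM (SD, n = 3 each). The call was lost without 8 of the 12 libraries in turn and under 3 of 10 other alternatives. The PAL median was 0.17 for Ri, -0.03 for Ga-H and -0.13 for Ga-L, each against NM.

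CHS uses the product of 4CL and is the entry to flavonoids. Of 11 CHS genes tested, 2 were higher and 2 lower in Ga-L against NM, as were 8.78% and 4.86% of all genes. The median log2 fold change was -0.90, beside medians of 0.02 in Ri and -0.04 in Ga-H. Of the tested CHS genes, Glyma.01G228700 had the highest mean level in each group. It was lower in Ga-L, at 310 ± 92.4 FPKM, than in NM, at 645 ± 115 FPKM (log2 fold change -1.01, adjusted p = 0.0259 in edgeR). That call was lost without Ga-L replicate 2, NM replicate 2 or NM replicate 3. Glyma.05G153200 had 1.58 ± 0.291 FPKM in Ga-L and 5.03 ± 2.63 FPKM in NM (SD, n = 3 each), a log2 fold change of -1.63 (adjusted p = 0.013 in edgeR, lost without Ga-L replicate 2, 0.0681). Glyma.08G109400 moved the other way, with 11.9 ± 2.33 FPKM in Ga-L and 5.54 ± 1.22 FPKM in NM (log2 fold change 1.14, adjusted p = 0.0101 in edgeR), and it stayed called in all 12 leave-one-out fits. In Ri against Ga-L it was lower, at 6.15 ± 1.97 FPKM in Ri (log2 fold change -1.01, adjusted p = 0.0417 in edgeR, lost without 10 of the 12 libraries in turn and under 3 of 10 other alternatives). Glyma.08G109300 was also higher in Ga-L, at 8.97 ± 2.03 FPKM, than in NM, at 4.77 ± 0.522 FPKM (SD, n = 3 each). Its log2 fold change was 0.96 (adjusted p = 0.0254 in edgeR). That call was lost without Ga-L replicate 2, NM replicate 1 or NM replicate 2. CHS genes of soybean are close copies and can share reads. Glyma.19G105100 was higher in Ri against Ga-L (log2 fold change 2.44, adjusted p = 0.0438 in edgeR), at 1.61 ± 0.908 FPKM in Ri and 0.273 ± 0.144 FPKM in Ga-L (SD, n = 3 each), a call lost without 11 of the 12 libraries in turn and with limma.

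CHR acts with CHS to make the deoxychalcones of legumes. Glyma.16G219400 rose in Ri against NM (log2 fold change 0.93, adjusted p = 0.0128 in edgeR) and in Ga-L against NM (1.09, adjusted p = 0.00497 in edgeR). It had 59.7 ± 12.8 FPKM in Ri, 50.7 ± 7.81 FPKM in Ga-H, 62.6 ± 7.91 FPKM in Ga-L and 30.5 ± 7.58 FPKM in NM (SD, n = 3 each). The Ri call was lost without Ri replicate 2 (adjusted p = 0.0506 in edgeR) and with the Ri and NM libraries fitted alone. The more abundant Glyma.18G285800 was lower in Ga-L, with 560 ± 81.5 FPKM in Ri, 586 ± 62.9 FPKM in Ga-H, 276 ± 93.9 FPKM in Ga-L and 499.8 ± 69.6 FPKM in NM. The log2 fold change was -0.81 in Ga-L against NM (adjusted p = 0.0385 in edgeR) and 0.95 in Ri against Ga-L (adjusted p = 0.0431 in edgeR), and these calls were lost without 8 and 10 of the 12 libraries in turn and under 3 of 10 other alternatives each.

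CHI closes the chalcone ring, and IFS makes the isoflavone skeleton. Glyma.20G241500 of the CHI list and Glyma.13G173500 of the IFS list passed in no comparison. Glyma.20G241500 averaged 295 ± 42.2 FPKM in Ri, 274 ± 74.6 FPKM in Ga-H, 192 ± 44.8 FPKM in Ga-L and 293 ± 35.7 FPKM in NM. Glyma.13G173500 averaged 361 ± 142 FPKM in Ri, 302 ± 43.9 FPKM in Ga-H, 207 ± 30.3 FPKM in Ga-L and 236 ± 18.4 FPKM in NM. Glyma.20G241600 of the CHI list was lower in every colonized group, with 87.2 ± 9.12 FPKM in Ri, 104 ± 13.6 FPKM in Ga-H, 107 ± 48.0 FPKM in Ga-L and 266 ± 37.8 FPKM in NM (SD, n = 3 each). Its log2 fold change against NM was -1.63 for Ri, -1.38 for Ga-H and -1.28 for Ga-L, with edgeR adjusted p = 0.00201, 0.00651 and 0.00787, and each call held without any 1 of the 12 libraries. Its neighbour Glyma.20G241700 was higher in Ri, at 11.2 ± 9.59 FPKM, than in NM, at 2.10 ± 0.416 FPKM (log2 fold change 2.38, adjusted p = 0.025 in edgeR), and that call was lost with limma and without Ri replicate 2 or any 1 NM library (adjusted p up to 0.117). Glyma.07G202300 of the IFS list was also lower in every colonized group, with 303.5 ± 27.1 FPKM in Ri, 266 ± 42.6 FPKM in Ga-H, 264 ± 30.2 FPKM in Ga-L and 475 ± 28.7 FPKM in NM. Against NM the log2 fold change was -0.67 for Ri, -0.86 for Ga-H and -0.80 for Ga-L (edgeR adjusted p = 0.0243, 0.00792 and 0.00948), and the Ri call was lost without Ri replicate 2, Ri replicate 3 or any 1 NM library and under 2 of 10 other alternatives, and the Ga-L call without Ga-L replicate 2.

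**Figure D4:**
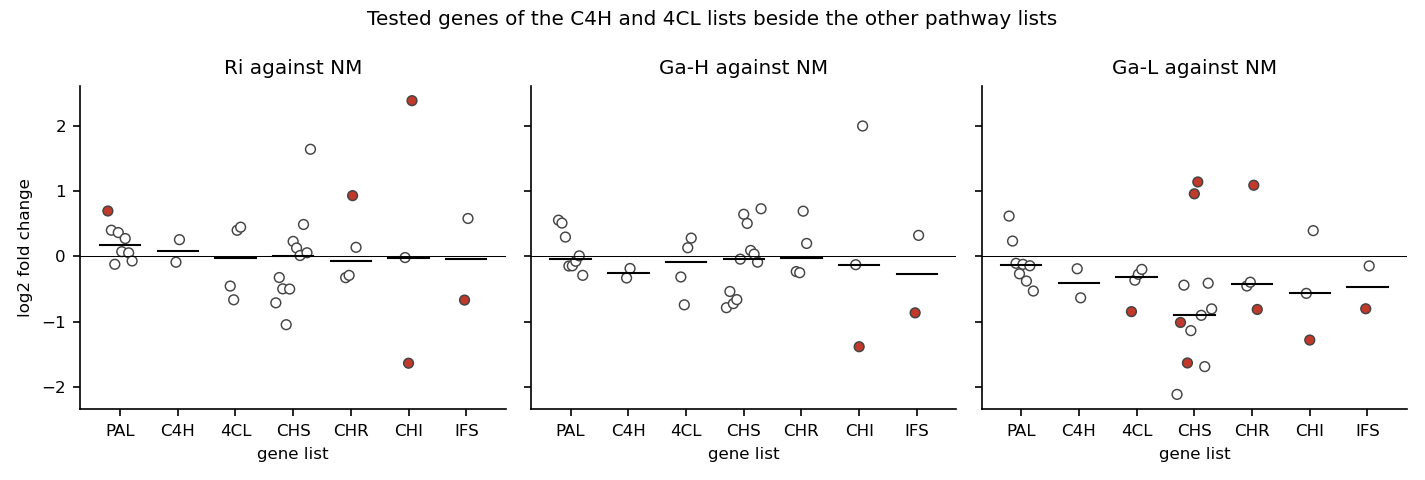
Log2 fold change against NM of every tested gene in the PAL, C4H, 4CL, CHS, CHR, CHI and IFS lists, in panels for Ri, Ga-H and Ga-L; red points passed an adjusted p of 0.05 in edgeR and short bars are list medians. The C4H and 4CL genes hold 1 red point, Glyma.01G232400 in Ga-L, while Glyma.20G241600 of the CHI list is red and below 0 in all 3 panels.

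The loci beside the members were also read, taking 3 listed genes on each side by ID order, 48 in all with 34 tested. Of these, 5 (14.7%) were higher and 2 (5.88%) lower in Ri against NM, beside 9.08% and 4.04% of all genes. In Ga-H against NM 5 (14.7%) were higher and 0 lower, beside 6.25% and 1.87%, and in Ga-L against NM 6 (17.6%) were higher and 2 (5.88%) lower, beside 8.78% and 4.86%. No test of these shares was made. The second listed locus after Glyma.14G205200, Glyma.14G205400, had 328 ± 100.3 FPKM in Ri, 171 ± 42.9 FPKM in Ga-H, 309 ± 72.8 FPKM in Ga-L and 1.70 ± 2.37 FPKM in NM (SD, n = 3 each). Its log2 fold change against NM was 7.57 for Ri, 6.61 for Ga-H and 7.54 for Ga-L, with edgeR adjusted p = 3.64e-05, 7.81e-05 and 2.28e-05. The C4H gene Glyma.14G205200 itself passed against NM in none of these groups in the edgeR fit with TMM scaling to all 12 libraries. For Ga-L it passed in 8 of 22 alternatives that kept read-sharing copies apart. These include other edgeR fits, such as upper quartile scaling (adjusted p = 0.0346) and the 2 groups alone (adjusted p = 0.0270).

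Glyma.20G113700, the third listed locus before Glyma.20G114200, had 23.1 ± 19.9 FPKM in Ri, 11.7 ± 3.67 FPKM in Ga-H, 11.9 ± 1.24 FPKM in Ga-L and 0.693 ± 0.192 FPKM in NM (SD, n = 3 each). Against NM these are log2 fold changes of 5.04, 4.09 and 4.15, with edgeR adjusted p = 0.000772, 0.00354 and 0.00251. Glyma.02G236300, the second before Glyma.02G236500, had 29.2 ± 5.76 FPKM in Ri, 43.9 ± 5.56 FPKM in Ga-H, 58.8 ± 10.6 FPKM in Ga-L and 5.15 ± 2.54 FPKM in NM. The calls for these 3 loci against NM held without any 1 of the 12 libraries. The tables give no function for them.

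The genes closest to Glyma.20G114200 in pattern across the 12 libraries were found by the root mean square difference of log2(FPKM + 1). It was taken over 33687 genes with a mean of at least 1 FPKM. Each gene was centred on its own mean, so levels and fold sizes may differ. The pattern matched holds the opposite moves in Ri and Ga-L for which Glyma.20G114200 was chosen. The nearest was Glyma.20G155200, with a difference of 0.229. It averaged 3.75 ± 1.16 FPKM in Ri, 1.83 ± 0.0755 FPKM in Ga-H, 0.940 ± 0.296 FPKM in Ga-L and 2.03 ± 0.234 FPKM in NM (SD, n = 3 each). Next came Glyma.06G292400, at 0.255, and Glyma.04G062900, at 0.279. Glyma.06G292400 averaged 22.2 ± 6.65 FPKM in Ri, 15.9 ± 2.28 FPKM in Ga-H, 8.55 ± 0.570 FPKM in Ga-L and 14.4 ± 1.92 FPKM in NM. Glyma.04G062900 averaged 5.37 ± 1.40 FPKM in Ri, 3.18 ± 0.571 FPKM in Ga-H, 1.86 ± 0.207 FPKM in Ga-L and 2.13 ± 0.530 FPKM in NM. The ranking depended on the pseudocount and on 1 library. With a pseudocount of 0.1 these genes ranked 4, 39 and 43, and without Ri replicate 1 they ranked 7, 3 and 43.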

How the data were processed

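Total RNA from soybean roots was sequenced in 12 libraries, 3 for each of the Ri, Ga-H, Ga-L and NM groups in the labels. For every library the authors deposited a table of genes, each with its expected count and FPKM per the file headers, and only values above 0 are listed. Bowtie2, HISAT and RSEM appear in the submitters' processing notes, with no version or role. The gene IDs carry the annotation tag Wm82.a2.v1. How the reads were assigned to strands is not given in the sources used here.

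Before testing, expected counts were rounded, genes missing from a table were set to 0, and edgeR's filterByExpr kept 36323 genes. edgeR 4.0.16 (R 4.3.3) was fitted to all 12 libraries with TMM scaling, robust quasi-likelihood dispersions and 1 mean per group (8 residual degrees of freedom, biological coefficient of variation 22.4%). Each of 6 contrasts was adjusted by the Benjamini-Hochberg method over all genes, with a threshold of 0.05, and standard errors were derived from the fold change and F statistic. The fit was tested on simulated counts. Alternatives were other scalings, no filter, DESeq2 1.42.0, limma 3.58.1 on log2(FPKM + 1) or log2(FPKM + 0.1) with and without a filter of 1 FPKM in 3 libraries, a replicate block, the 2 compared groups alone, and each library left out. A further one, chosen after seeing the data, counted both read-sharing copies as 1 gene. It is not among the 22 alternatives, or the 10 other than single libraries, counted above. It is among the 396 fold changes below.

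Levels are the deposited FPKM, as mean and SD over 3 libraries. Depth was nearly equal, from 10182200 to 11054762 counts per library. The members and lists were chosen with earlier results of these data known. Members are all named, and of the pathway lists and neighbouring loci up to 3 genes past the threshold, with the largest fold changes first. Fungal colonization and plant growth were not analysed here.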

Additional observations from a re-analysis of the deposited data

How the results depend on the processing

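Setting aside single libraries left out, 377 of 396 fitted fold changes kept their direction and side of the threshold, 10 came past it, 4 no longer passed and 5 turned sign. None of the values that turned sign passed the test before or after. With both read-sharing copies counted as 1 gene, the log2 fold change became 0.0039 for Glyma.02G236500 in Ri against NM, -0.079, 0.15 and 0.23 for Glyma.11G010500 in Ri against Ga-H, Ri against Ga-L and Ga-H against Ga-L, and -0.0091 for Glyma.14G205200 in Ga-H against Ga-L. With single libraries left out, 6 of 432 turned sign. In Ri against Ga-H these were 3 values of Glyma.11G010500, whose range was -0.081 to 0.35, 1 of Glyma.17G064600 (-0.059 to 0.30) and 1 of Glyma.01G232400 (-0.25 to 0.040). In Ga-H against NM it was 1 of Glyma.13G372000 (-0.0025 to 0.21). In Ga-L against NM, where 1 member was called, the count was 2 with upper quartile scaling, library totals, DESeq2, limma on log2(FPKM + 1) or log2(FPKM + 0.1), and the 2 groups alone. In Ri against Ga-L, where 1 was called, it was 2 with library totals, DESeq2 and both limma settings, and 0 with the replicate block and with the 2 groups alone (adjusted p = 0.0568 and 0.130 for Glyma.14G205200). Leaving out each library in turn gave 0 to 2 called members in Ga-L against NM, 0 to 3 in Ri against Ga-L and 0 to 1 in Ga-H against NM. The cause of these shifts was not tested. The shares of all genes called in the alternative fits of this section are not given. The counts of called members under them therefore have no background beside them. Whether the replicate numbers shared by the groups pair the libraries was not settled. Deviations of same-numbered libraries correlated between -0.033 and 0.23 among colonized groups and between -0.40 and 0.084 with NM. The own number matched best in 7 of 18 checks, and 3 libraries per group are too few to decide. Under the replicate block the counts were 1 in Ga-L against NM and 0 in the other comparisons, and no call was added. Few reads limit Glyma.20G114200, with 3 to 9 per Ga-L library, and read sharing limits the 6 tested members.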

Other observations

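Other loci next to the members also passed the test. Glyma.01G232500, the listed locus after the 4CL gene Glyma.01G232400, was lower in Ga-L, at 4.20 ± 0.185 FPKM, than in NM, at 7.47 ± 1.27 FPKM (SD, n = 3 each). Its log2 fold change was -0.79, with adjusted p = 0.0102 in edgeR, and the call was lost without Ga-L replicate 2 (adjusted p = 0.0502 in edgeR). It was chosen after its values were seen, for its place and direction beside those of Glyma.01G232400. The locus was also higher in Ga-H, at 7.95 ± 1.33 FPKM, than in Ga-L (log2 fold change 0.84, adjusted p = 0.0485 in edgeR), a call lost without 9 of the 12 libraries in turn and under 4 of 10 other alternatives. In Ri it averaged 6.41 ± 0.886 FPKM.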
